A study of Mus musculus with 2 samples.

Results

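The genes described here are the factors that start, extend and end protein synthesis on cytosolic ribosomes, together with the enzymes and binding proteins that share their gene symbols. They were taken from the deposited expression table of mouse primordial germ cells (PGCs) by symbol: every entry beginning with Eif1 to Eif6, Eef1 or Eef2, and Etf1, leaving out 5 entries named as pseudogenes. The rule found 65 of 18877 genes. RNA-seq was performed on PGCs, from which oocytes and sperm later arise, of untreated C57BL6 embryos at E9.5, isolated by SSEA1, a surface antigen of PGCs. Both libraries belong to this 1 group and their titles number them replicate 1 and replicate 2. The methods describe female embryos and Smart-seq2 cDNA from small numbers of sorted cells, whereas the labels name another library kit, so the library chemistry is uncertain. Cultured cells and other stages were not analysed here, so no comparison between conditions was made and no p-value is given.

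Levels are TPM, a relative abundance in which reads per base of gene length are scaled to a fixed total in each library, so that levels of different genes can be set side by side per length. Reads behind each value were recovered from the table (15912470 in replicate 1 and 5458687 in replicate 2), and the 95% Poisson intervals built from them cover counting error only. All 9 PGC markers examined had a row, from Prdm1 (6.98 ± 1.22 TPM, SD, n = 2) to Dppa5a (21079 ± 340). Markers of other cells were also present. The 7 of 10 erythroid markers in the table summed to 4002 TPM in replicate 1 and 3780 in replicate 2, with Hba-x at 2198 ± 188 and Klf1 at 0.920 ± 0.911. Of 5 markers each of macrophages, endothelium and mesenchyme, 4 were in the table. The macrophage markers summed to 19.4 and 9.53 TPM, the endothelial markers to 4.71 and 1.01, and the mesenchymal markers to 2.37 and 3.95. C1qb (macrophage) and Emcn (endothelial) were at 0 in replicate 2. The part of these other cells in the levels below was not tested. In bulk RNA a change in the number of cells of a type cannot be told apart from a change in RNA per cell.

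Translation of most mRNAs begins when eIF2 delivers the initiator tRNA to the small ribosomal subunit, eIF3 and the eIF4 factors bring that subunit to the capped mRNA, and eIF1, eIF1A and eIF5 help select the start codon. eIF5B then joins the large subunit. eEF1A carries aminoacyl-tRNAs to the ribosome, eEF1B recharges eEF1A with GTP, eEF2 moves the ribosome along the mRNA and eRF1 (Etf1) recognises stop codons. Phosphorylation of eIF2 and sequestration of eIF4E by binding proteins are the classical brakes on this pathway.

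Many mRNAs of the translation machinery are known to begin with a C and a run of pyrimidines, the 5′ terminal oligopyrimidine motif through which mTORC1 controls their translation. RefSeq start sequences (GRCm38.p6) were matched by symbol for 49 of the 65 genes. The 30 bases around the annotated start are shown for the most abundant factor. Also shown are some of the subunits of eIF3, eIF2 and eIF4F that hold such a run. The eIF3 subunit Eif3b, with a run of 5 bases, is not shown. Eef1b2 and Eef2 are shown as elongation factors without one in this window. The annotated start is base 16, and capitals mark the longest run of a C followed by at least 4 C or T whose first C lies within 5 bases of it.
Eef1a1, chr9:78481710-78481739, minus strand: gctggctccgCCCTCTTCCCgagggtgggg
Eif3f, chr7:108934400-108934429, plus strand: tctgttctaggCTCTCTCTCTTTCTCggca
Eif3l, chr15:79075208-79075237, plus strand: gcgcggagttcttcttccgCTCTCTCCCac
Eif2s3x, chrX:94212637-94212666, minus strand: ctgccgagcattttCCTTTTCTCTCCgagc
Eif4g1, chr16:20672712-20672741, plus strand: cgccagcgcagctccgCCCTCTgcgccggt
Eef1b2, chr1:63176816-63176845, plus strand: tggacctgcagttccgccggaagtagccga
Eef2, chr10:81176616-81176645, plus strand: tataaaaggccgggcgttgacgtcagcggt
Such a run, searched on the strand of the gene, was found in 13 of the 49 genes (26.5%) and in 23.3% of the 10839 genes of the table with a start sequence. Of the 3230 such genes with a mean of 10 TPM or more, 23.6% held one. Translation factors with the run had a median level of 27.6 TPM and those without it of 70.3 TPM, and Eef1a1, the highest of them, was among those with it. When the C was allowed up to 30 bases after the start, the shares were 46.9% of the factors and 47.0% of all genes, and the medians 54.3 TPM with and 60.9 TPM without the run. With the C at the annotated start itself, the run was found in 2 of the 49 factors (4.08%) and in 3.02% of all genes. Eef1a1 was not among these, since its annotated start falls on a T inside its run. The factors found were Eif3f and Eif2s3x. The median was 66.9 TPM for these 2 factors and 56.2 TPM for those without it, so the difference in level rested on the window. The shares among the factors were thus near those of all genes. These starts are annotated ones, and the starts used in PGCs were not measured. A gene without a run in this window may therefore still have an mRNA that begins with one.

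Transcripts of the translation factors were abundant in E9.5 PGCs. Their median log2(TPM + 1) was 5.96 in replicate 1 and 5.97 in replicate 2 (5.96 ± 0.0084, SD, n = 2), whereas that of all genes was 1.89 and 1.85. TPM reached 1 in both replicates for 62 of the 65 (95.4%) and for 60.0% of all genes, and 53 of the 65 lay above the upper quartile of all genes. The medians of other housekeeping families were higher, at 7.23 ± 0.19 for 37 proteasome subunit genes and 9.26 ± 0.06 for 93 cytosolic ribosomal protein genes. The factors summed to 8530 TPM in replicate 1 and 8294 in replicate 2, or 0.854% and 0.830% of each library, compared with 95956 and 104396 TPM for the ribosomal protein genes.

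**Figure D1:**
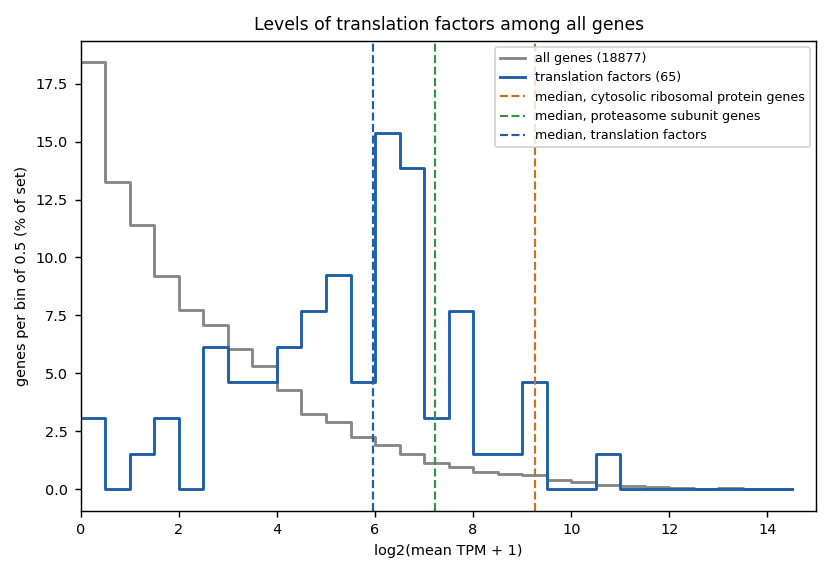
Distribution of levels over all 18877 genes (grey) and the 65 translation factors (blue), as the percentage of each set per bin of 0.5 in log2 of the mean TPM + 1. Dashed lines mark the medians: 5.96 for the translation factors, 7.23 for proteasome subunit genes and 9.26 for cytosolic ribosomal protein genes.

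The levels were spread over several orders of magnitude. A mean of 100 TPM or more was found for 22 factors, 31 lay between 10 and 100, 10 between 1 and 10, and only Eif4e3 and Eef1akmt3 were under 1. Eef1a1 alone made up 23.2% of the summed TPM and the 5 highest genes 50.7%. In the order of mean levels, 46 of 64 neighbouring genes had replicate values that overlapped, so their order is not resolved.

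**Figure D2:**
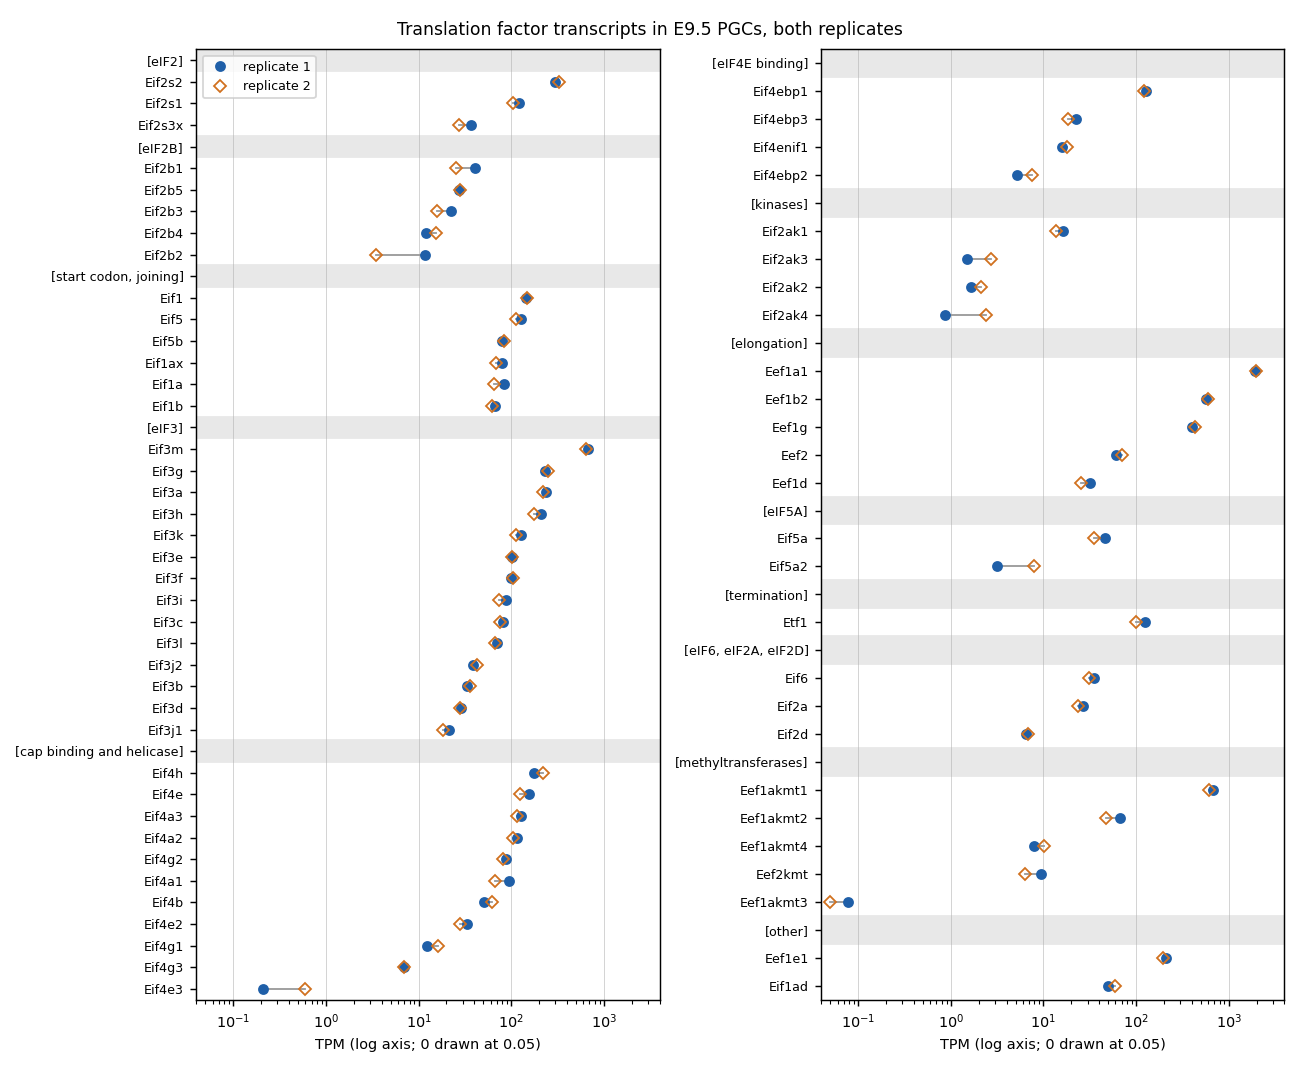
TPM of every translation factor in replicate 1 (filled circles) and replicate 2 (open diamonds) on a log axis, grouped by role and joined by a line. Eef1a1 lies highest at 1936 and 1969 TPM, the 6 factors of start codon selection lie between 61.7 and 149 TPM, and 3 of the 4 eIF2 kinases lie below 3 TPM.

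The elongation factors were the most abundant group, with sums of 3004 and 3096 TPM over 5 genes. Eef1a1, the factor that delivers aminoacyl-tRNA, was at 1936 TPM in replicate 1 and 1969 in replicate 2 (1952 ± 23.3), above 99.6% of all genes. The subunits of its exchange factor were unequal. Eef1b2, an exchange subunit, was at 570 and 602 TPM and Eef1g, the structural subunit, at 406 and 429, a ratio of 1.40 in both replicates. Eef1d, the other exchange subunit, was at 31.6 and 25.5 TPM, and Eef1b2 exceeded it 18.1-fold and 23.6-fold. Eef2, the translocase that acts once per codon as eEF1A does, was at 61.1 and 71.3 TPM, so that Eef1a1 exceeded it 31.7-fold and 27.6-fold. The replicate values of these 5 genes as deposited did not overlap, but those of Eef2 and Eef1d did when reads were divided by another length, as given below. Eef1a2, the paralog of Eef1a1 known from muscle and neurons, was not analysed here.

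A short annotated gene lies inside Eef1a1. Gm26377, annotated as a miRNA gene of 108 bases (chr9:78478528-78478635, minus strand, GRCm38), is wholly contained in the last exon of Eef1a1 (chr9:78478449-78489151, minus strand), in the 3′ UTR, and begins 102 bases after the last coding base of the longest coding transcript. It was listed at 19320 TPM in replicate 1 and 20442 in replicate 2, which is 9.98-fold and 10.4-fold the level of its host. In reads the order was the opposite, with 19835 and 7381 reads for Gm26377 and 45872 and 16408 for Eef1a1, or 43.2% and 45.0% of the host. Annotated miRNA genes also lie wholly inside exons of Eif3j1 and Eif3j2 on the same strand. Gm47314, of 68 bases, was listed at 314 and 317 TPM, which is 14.6-fold and 17.2-fold the level of Eif3j1, and Gm27325 at 82.5 and 84.9 TPM, 2.14-fold and 1.97-fold the level of Eif3j2. How reads in such nested stretches were assigned is not stated. When the listed TPM of the 12 genes wholly inside factors on the same strand were added, the mean summed TPM went from 8412 to 28718. Those TPM are reads divided by the short lengths of the nested genes. Divided by the longer lengths of the hosts, the same reads would add less, and that sum was not computed.

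**Figure D3:**
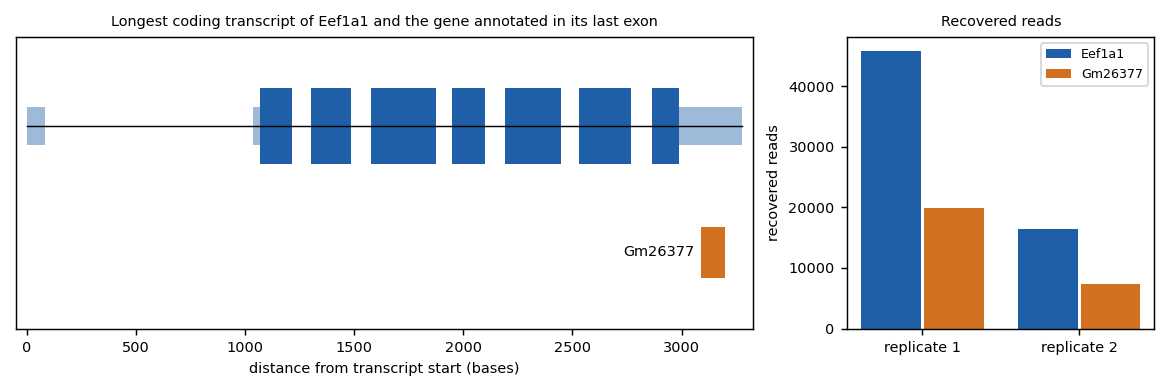
Left, exons of the longest coding transcript of Eef1a1 (light, untranslated; dark, coding) and the annotated gene Gm26377 (orange) by distance in bases from the transcript start. Right, recovered reads in each replicate, where Gm26377 has 43.2% and 45.0% as many reads as Eef1a1.

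Copies elsewhere in the genome also touch several of these values. How often other genes are touched in this way was not computed. Stretches of 75 bases identical to another annotated gene were found in 27 factors and made up over 10% of the stretches of 8, from 12.7% in Eif3h to 87.4% in Eif3j2, with 25.4% in Eef1a1 and 37.97% in Eef1g. The processed pseudogenes Gm4366, a copy of Eef1g, and Gm13456, a copy of Eef1a1, were listed at 112 ± 3.96 and 59.0 ± 3.70 TPM. Reads of these genes and their copies could not be separated here, and the treatment of reads with several positions is not stated.

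The eIF2 subunits, which assemble in equal numbers in the protein complex, differed in transcript level. Eif2s2, encoding the beta subunit, was at 296 and 329 TPM. Eif2s1, the alpha subunit that carries the regulatory phosphorylation site, was at 122 and 104 TPM. Eif2s3x, the X-linked gene of the GTP-binding gamma subunit, was at 36.5 and 27.3 TPM. The order was the same in both replicates with no overlap, and Eif2s2 exceeded Eif2s1 2.43-fold and 3.17-fold and Eif2s3x 8.12-fold and 12.1-fold. A processed pseudogene of Eif2s2, Gm9892, was listed at 197 ± 6.31 TPM, and 34.2% of the stretches of Eif2s3x were shared with other genes. The Y-linked paralog Eif2s3y was not analysed here.

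eIF2B, the exchange factor that returns eIF2 to its GTP-bound state, had a lower summed level than eIF2, although Eif2b1 and Eif2b5 overlapped with Eif2s3x. Eif2b1, the alpha subunit, was at 40.8 and 25.5 TPM, Eif2b5, the catalytic epsilon subunit, at 27.4 and 27.9, and Eif2b3, the gamma subunit, at 22.2 and 15.9. Eif2b4, the delta subunit, was at 12.1 and 15.4 TPM. Eif2b2, the beta subunit, was at 11.7 and 3.49 TPM from 209 and 22 reads, and it was the factor that differed most between the replicates. The sum over the 5 subunits was 114 and 88.2 TPM, compared with 454 and 460 TPM for the 3 eIF2 subunits.

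The kinases that phosphorylate eIF2 alpha were among the lowest members. Eif2ak1, the heme-regulated kinase HRI, known for matching globin synthesis to heme in erythroid cells, was at 16.2 and 13.6 TPM. Eif2ak3 (PERK, the kinase of endoplasmic reticulum stress) was at 1.48 and 2.73 TPM, Eif2ak2 (PKR, activated by double-stranded RNA) at 1.65 and 2.11, and Eif2ak4 (GCN2, activated by uncharged tRNA) at 0.875 and 2.41. Eif2ak1 thus lay above the other 3, whose values overlapped between genes. Erythroid globin transcripts were present in both libraries, as given above, and their part in the level of Eif2ak1 was not tested. Eif2ak1 also shares 487 exonic bases with Aimp2 on the opposite strand, which was at 57.8 and 49.2 TPM, and strand use in counting is not stated. Of 6 genes of the integrated stress response in the table, all reached 1 TPM in both replicates. They ranged from Ppp1r15a, a phosphatase subunit that reverses eIF2 phosphorylation (1.62 ± 0.135), to Asns, asparagine synthetase (55.6 ± 2.37). Atf4, the transcription factor whose translation rises when eIF2 is phosphorylated, was at 22.9 ± 4.43 TPM.

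The factors of start codon selection and subunit joining formed the most even group, with a highest mean 2.31-fold above the lowest. Eif1, which guards the accuracy of start codon recognition, was at 146 and 149 TPM, and its paralog Eif1b at 66.2 and 61.7, a ratio of 2.20 and 2.42. Of the stretches of Eif1, 15.3% are shared with other genes. Eif5, which activates the GTPase of eIF2, was at 127 and 114 TPM, and Eif5b, the GTPase of subunit joining, at 78.9 and 83.6. Both eIF1A genes were at similar levels. Eif1a was at 82.9 and 64.9 TPM and the X-linked Eif1ax at 79.4 and 69.2, with a ratio of 1.05 in replicate 1 and 0.938 in replicate 2, so that their order was not resolved.

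The eIF3 complex, the scaffold that holds the initiation machinery on the small subunit, was represented by 14 genes and summed to 2051 and 1950 TPM. Eif3m was by far the highest at 682 and 640 TPM, followed by Eif3g, an RNA-binding subunit, at 229 and 250 and by Eif3a, the core scaffold subunit, at 235 and 221. The replicate values of Eif3g and Eif3a overlapped. The lowest were Eif3j1 at 21.5 and 18.4 TPM, Eif3d, a subunit that can bind the cap of some mRNAs, at 28.6 and 27.9, and Eif3b, another scaffold subunit, at 33.5 and 35.8. The other factors of the group, apart from Eif3j2, lay between Eif3l (68.9 ± 3.23) and Eif3h (195 ± 24.6). Eif3j2 was at 38.5 and 43.0 TPM, above Eif3j1 in both replicates, but since 87.4% of its stretches are shared with that paralog the division of reads between them is uncertain. Eif3m shares 9.42% of its stretches with a processed pseudogene, Gm7658, listed at 138 ± 0.385 TPM, and Eif3d overlaps the antisense gene Gm17638 (10.5 and 10.1 TPM) over 2151 exonic bases.

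Of the cap-binding and helicase factors, Eif4h, which stimulates the helicase eIF4A, was highest at 174 and 220 TPM, followed by Eif4e, the cap-binding protein, at 155 and 123 and by Eif4a3, the helicase of the exon junction complex, at 129 and 114. The values of the last 2 genes overlapped. The initiation helicases Eif4a1 and Eif4a2 were at 95.1 and 67.4 TPM and at 117 and 105 TPM, with Eif4a2 above Eif4a1 in both replicates. Eif4a2 shares 194 exonic bases with Rfc4 on the opposite strand, which was at 743 and 708 TPM. Of the stretches of Eif4a1, 22.5% are shared with other genes. The part of either in the order of this pair was not tested. Eif4b, a cofactor of the helicase, was at 50.6 and 61.7 TPM. Eif4e exceeded Eif4e2, a cap-binding paralog known as a repressor, 4.68-fold and 4.34-fold (33.1 and 28.4 TPM for Eif4e2). Eif4e3, the remaining cap-binding paralog with a row, was at 0.209 and 0.595 TPM from 5 reads in each library.

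The scaffold proteins of the eIF4F complex showed an unequal pattern. Eif4g1 was at 12.4 and 16.1 TPM and Eif4g3 at 6.94 and 7.03. Eif4g2 (DAP5), a related scaffold that lacks the eIF4E binding site and serves cap-independent initiation, was at 88.7 and 80.7 TPM. It exceeded Eif4g1 7.17-fold and 5.03-fold and Eif4g3 12.8-fold and 11.5-fold, with no overlap of replicate values.

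Of the eIF4E binding proteins, which keep eIF4E from eIF4G until mTORC1 phosphorylates them, Eif4ebp1 was by far the highest at 129 and 123 TPM. Its ratio to Eif4e was 0.830 in replicate 1 and 0.995 in replicate 2. Eif4ebp3 was at 22.8 and 18.5 TPM, and Eif4ebp2 at 5.24 and 7.60, so that Eif4ebp1 exceeded Eif4ebp2 24.6-fold and 16.1-fold. Eif4enif1, the nuclear import carrier of eIF4E, was at 15.8 and 17.9 TPM. Eif4ebp3 shares 67.3% of its exonic bases with AC115631.1, a gene on the same strand that was not analysed here. Of 11 genes of mTORC1 and MNK signalling, 9 reached 1 TPM in both replicates. The 11 ranged from Mknk1, an eIF4E kinase (1.14 ± 0.921), to Rheb, the GTPase that activates mTORC1 (119 ± 10.02), with Mtor itself at 7.53 ± 0.101.

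Eif5a, the factor that relieves stalled ribosomes and carries the amino acid hypusine, was at 46.2 and 35.2 TPM. Its paralog Eif5a2 was at 3.14 and 7.97 TPM, and the ratio of the pair was 14.7 in replicate 1 and 4.42 in replicate 2. Dhps and Dohh, the enzymes that form hypusine, were at 24.9 ± 3.03 and 3.49 ± 0.804 TPM. The 6 diphthamide genes examined, which modify eEF2, ranged from Dph2 (3.45 ± 0.823) to Dph3 (130 ± 7.31). Eif6, which keeps the large subunit from joining too early, was at 34.8 and 31.3 TPM. Eif2a and Eif2d, which can deliver initiator tRNA without eIF2, were at 26.9 and 23.5 TPM and at 6.48 and 6.81 TPM.

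Etf1, the release factor eRF1, was at 125 and 99.4 TPM. Gspt1, the GTPase partner eRF3, was at 54.6 ± 1.88 TPM. All 6 genes of release and recycling reached 1 TPM in both replicates, from Gspt2 (6.97 ± 0.800) to Denr, a recycling factor (100 ± 1.79). The 5 genes of poly(A) tail binding ranged from Paip2b (7.18 ± 0.409) to Paip2, an inhibitor of the poly(A)-binding protein (412 ± 37.3), and Pabpc1, that protein itself, was at 97.2 ± 8.39 TPM. Paip1, an activator of translation, was at 44.6 TPM in replicate 1 and 12.9 in replicate 2.

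The methyltransferases that modify elongation factors covered the whole range of levels. Eef1akmt1, a lysine methyltransferase of eEF1A, was at 681 and 619 TPM, and its replicate values overlapped with those of Eif3m. Eef1akmt2 was at 67.8 and 48.0 TPM. Eef1akmt4 was at 7.84 and 10.03 TPM, and Eef2kmt, which methylates eEF2, at 9.35 and 6.37 TPM. Eef1akmt3 had 2 reads in replicate 1 and 0 in replicate 2, which allows up to 0.330 TPM when 3 reads are taken as the limit of a count of 0. Eef1akmt1 exceeded Eef1akmt2 10.05-fold and 12.9-fold. Eef2kmt shares 472 exonic bases with Alg1 on the opposite strand. Eef1akmt4 shares 495 exonic bases (30.7% of its length) with Gm49333 on the same strand, which was at 1.93 and 2.17 TPM. It also shares 143 exonic bases with Alg3 on the opposite strand, which was at 14.1 and 5.57 TPM.

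Of the remaining members, Eef1e1, a scaffold protein of the tRNA synthetase complex, was at 211 and 198 TPM. Eif1ad, a nuclear protein with a domain like that of eIF1A, was at 49.3 and 59.4 TPM. It shares 428 exonic bases with Banf1 on the opposite strand, which was at 1230 and 1114 TPM, so that reads from that overlap cannot be told apart without strand. Overlaps with genes on the opposite strand touched 18 of the 65 factors and overlaps on the same strand 14. The shares over all genes were not computed, so whether the factors were touched more often than other genes cannot be judged.

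The replicates were close for most factors. Values lay within 1.25-fold of each other, on the TPM + 1 scale, for 46 of the 65. This share was not computed over all genes. The median fold between replicates on that scale was 1.152 for the factors and 1.195 for all genes. Most genes of the table therefore also lay within 1.25-fold. The median difference of log2(TPM + 1), replicate 2 minus replicate 1, was -0.09 for the factors, beside -0.01 over all genes. A difference of more than 2-fold on that scale was found for 2 of the 65 factors (3.08%), compared with 10.2% of all genes. Eif5a2 was the 1 factor higher in replicate 2, where 4.31% of all genes were, and Eif2b2 the 1 factor lower, where 5.89% of all genes were. Of the factors with a mean of 10 TPM or more, 0 of 53 differed by more than 2-fold, compared with 2.77% of all genes at that level. Few of the factors were low genes, and the share of all genes past 2-fold was smaller at that level than over the whole table.

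**Figure D4:**
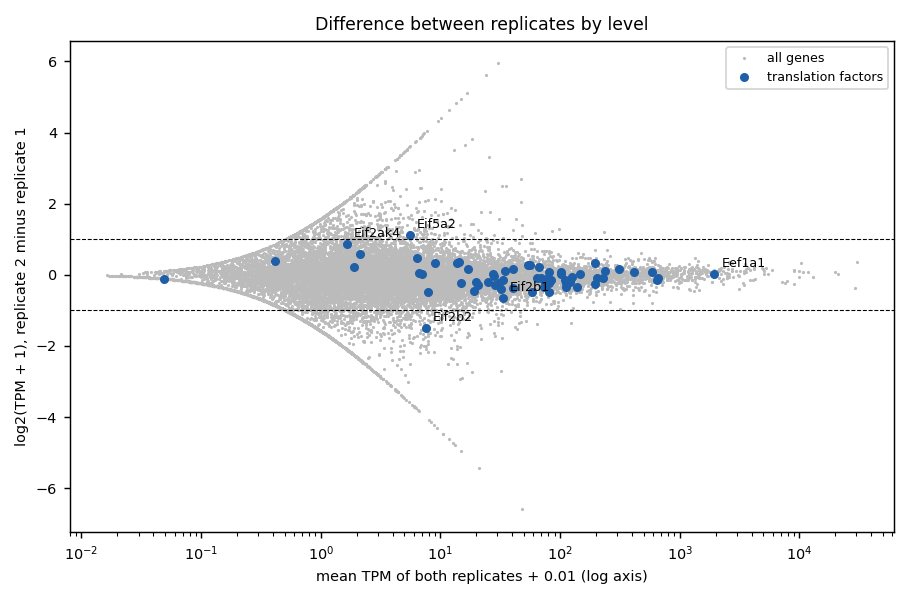
Difference in log2(TPM + 1), replicate 2 minus replicate 1, against the mean TPM on a log axis, for all genes above 0 in either replicate (grey) and the translation factors (blue). Dashed lines mark a 2-fold difference, which only Eif5a2 and Eif2b2 exceed among the factors.

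Counting error did not cover all of these differences. The Poisson intervals of the replicates were apart for 37 of the 65 factors (56.9%), compared with 26.8% of the 17282 genes with a recovered read. Of the 37, 13 were higher and 24 lower in replicate 2. Poisson intervals narrow as reads rise, and the 65 factors held 1.72% of all recovered reads in each replicate. The shares of all genes by direction and of genes at similar levels were not computed. Whether the factors differ from other genes here therefore cannot be judged. Of the factors with a mean of 10 TPM or more, the 5 most higher in replicate 2 were Eif4g1 (difference 0.35), Eif4h (0.33), Eif2b4 (0.33), Eif4b (0.28) and Eif1ad (0.26). The 5 most lower were Eif2b1 (-0.66), Eif4a1 (-0.49), Eef1akmt2 (-0.49), Eif2b3 (-0.46) and Eif2s3x (-0.40). Members of the cap-binding group and of eIF2B were found in both directions. Replicate 1 held 2.92 times as many reads as replicate 2, and the macrophage and endothelial markers were lower in replicate 2. The part of either in these differences was not tested.

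The length by which reads were divided changed the levels and the order of several factors. The deposited TPM matched a length over all annotated exons of a gene. When the reads were divided by the length of the longest protein-coding transcript and rescaled, an alternative chosen after seeing the data, levels changed between 0.735-fold and 3.28-fold, and 10 of the 65 changed by more than 1.5 times. Eif3e rose from 102 to 336 TPM, Eif3i from 81.1 to 197, Eif3k from 120 to 263 and Eif2s2 from 313 to 611, whereas Eef1a1 went from 1952 to 1996. The ratios between subunits moved with them. Eif2s2 then exceeded Eif2s3x 25.6-fold on average in place of 10.1-fold, and Eif4e exceeded Eif4e2 2.52-fold in place of 4.51-fold. The mean ratio of Eif4a1 to Eif4a2 was 0.902 in place of 0.728, with values on either side of 1 in the replicates (1.01 and 0.797), and the order of this pair therefore rests on the length used. Eif4a2 (mean 161 TPM) then lay above Eif4a3 (126) and Eif4e (123) with no overlap of replicate values. Eif4a1 had a mean of 146 TPM. Its replicate values, 171 and 121 TPM, overlapped with those of Eif4a3 and Eif4e, so that its order with them was not resolved. In eIF3, Eif3e then ranked second after Eif3m (981 TPM), ahead of Eif3g (317) and Eif3a (286), and the lowest members were Eif3j1 (15.8), Eif3b (29.0) and Eif3j2 (29.98), with Eif3d at 54.4. Eef1d was at 53.1 and 42.8 TPM and Eef2 at 48.5 and 56.4, so that their order was not resolved, and Eef1b2 exceeded Eef1d 11.9-fold on average in place of 20.8-fold. Eif1a exceeded Eif1ax in both replicates, 1.49-fold and 1.34-fold, and Eif1 exceeded Eif1b 3.22-fold and 3.53-fold in place of 2.20-fold and 2.42-fold. Leaving out a replicate changed the means of 5 low factors by more than 1.5 times, namely Eif2b2, Eif5a2, Eif2ak4, Eif4e3 and Eef1akmt3. The rank order over all 65 factors was largely kept, with a Spearman correlation of 0.970 between the levels under both lengths, which share the same reads.

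**Figure D5:**
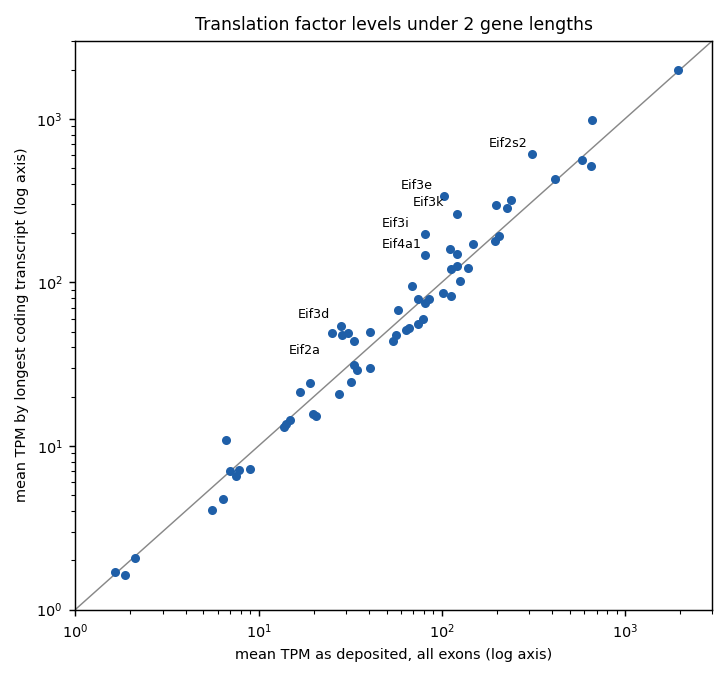
Mean TPM of the translation factors at or above 1 TPM as deposited, with a length over all exons, against the mean TPM with the length of the longest protein-coding transcript, both on log axes, with the line of equality. Eif3e lies farthest above the line, at 102 and 336 TPM.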

How the data were processed

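RNA-seq of E9.5 PGCs was available as 1 table with 2 library columns. Per the methods, the authors aligned reads to mm10 with Hisat2 and counted reads per gene with featureCounts, and the submitters' processing notes name Bowtie2, HISAT2, RSEM, DESeq2 and R 3.4.2 without their roles. The authors deposited the values as TPM. Annotation, strand and multi-mapping settings are not given in the sources used here. Symbols were matched to GENCODE M21 on GRCm38 (18748 of 18877 genes). Multiplied by exon length, low values fell on multiples of 1 step in each library, taken as 1 read (96.7% and 95.8% of values under 50 reads within 0.02 of whole). Reads of Eif3a, Eif1a, Eif1ad, Eif2b5, Eif4g1 and Eef1akmt4 were not whole and are approximate. Read recovery was tested on simulated data.

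Members and lists were chosen with earlier results of these data known. No test was run, because 1 group of 2 libraries offers no contrast, and the libraries are biological replicates per the study, with no statement in the labels on separate embryos. Values are given per replicate and as mean ± SD, with log2(TPM + 1) for medians. Low TPM are understated on that scale. The rule for naming genes took all members of role groups of up to 8, the 3 highest and 3 lowest of larger groups, set paralog pairs, and the 5 most higher and 5 most lower in replicate 2 at a mean TPM of at least 10. Eif4b is in that last list, Eif4g2 was added as a partner of Eif4g1, and the members Eif3e, Eif3i and Eif3k and other single genes with a large length effect or a shared stretch were named after their values were seen. Alternatives were a pseudocount of 0.1, filters and thresholds on TPM, core factors only, other scaling or centring and leaving out each replicate, and those chosen after seeing the data were the transcript length, leaving out Eef1a1 or factors with shared stretches, and adding nested genes. Python 3.11.15, numpy 2.4.6, pandas 2.3.3, scipy 1.17.1 and matplotlib 3.10.9 were used.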

Additional observations from a re-analysis of the deposited data

How the results depend on the processing

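The median log2(TPM + 1) of the factors, 5.96, was 5.94 with a pseudocount of 0.1, 6.02 for members at a mean TPM of at least 1, 6.22 for core factors only and 6.17 with TPM rescaled without genes of under 200 exonic bases. It was 5.78 with the longest-transcript length and 5.80 without factors that share stretches over more than 10%. Leaving out each replicate gave 5.96 to 5.97. The mean summed TPM of 8412 became 7238 for core factors only, 9752 after the same rescaling, 9736 with the longest-transcript length and 6460 without Eef1a1. It was 8294 to 8530 when each replicate was left out. Adding the listed TPM of nested genes, which rest on their own short lengths, gave 28718. The number of factors at 1 TPM, 62, was 63 at a threshold of 0.5, 58 at 5, 49 for core factors only and 62 to 63 with each replicate left out. With a pseudocount of 0.1, 4 factors in place of 2 differed more than 2-fold between replicates, adding Eif2ak4 and Eif4e3. The median difference between replicates kept its sign under all 3 alternatives, at -0.05 when replicate 2 was centred on genes with a mean of 1 TPM or more, whose own median difference was -0.04. Rescaling raised every factor by about 1.16-fold. No paired analysis was possible because there is 1 group. Depth limits the low members most, since Eif4e3 rests on 5 reads per library and Eef1akmt3 on 2 reads in all, and the spread of 2 libraries gives little precision for any SD.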

Other observations

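The 9 factors of mitochondrial translation, a separate set encoded in the nucleus, had a lower median log2(TPM + 1) (3.42 ± 0.08) than the 65 members (5.96). Some of the 65, such as Eif4g1 (14.2 ± 2.61 TPM), lay within the range of the mitochondrial set. All 9 reached 1 TPM in both replicates, and they ranged from Mrrf, the ribosome recycling factor (5.55 ± 1.59 TPM, SD, n = 2), to Gfm1, the mitochondrial translocase (17.9 ± 0.0420), a span of 3.23-fold. Tufm, the mitochondrial counterpart of eEF1A, was at 15.9 and 8.02 TPM, compared with 1936 and 1969 TPM for Eef1a1. Tsfm, its exchange factor, was at 14.6 and 8.86 TPM.

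Eefsec and Secisbp2, which insert selenocysteine, were at 8.17 ± 0.232 and 7.50 ± 1.47 TPM. Of the 5 entries named as pseudogenes of translation factors and left out by the rule, Eif3s6-ps2, a copy of Eif3e, was highest at 36.3 ± 10.5 TPM, compared with 102 ± 0.748 TPM for Eif3e.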
